A study of Mus musculus with 18 samples.

Results

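The integrated stress response genes described here are Atf4 and 9 genes known as its relatives or targets (Atf5, Atf3, Ddit3, Trib3, Chac1, Asns, Sesn2, Ddit4 and Ppp1r15a). They were chosen by their symbols, and all 10 are among the 18204 genes listed for J774.1 cells, a mouse cell line with macrophage properties. RNA sequencing covered 18 samples in 6 groups, with 3 replicates per group, from 3 treatments of 4 h given to J774.1 wildtype cells and to Ctbp1/2 dKO cells. The treatments were 1.5 mM MTOB, 250 µM 4-Cl-HIPP and a PBS/DMSO vehicle, and 1 vehicle group per genotype served both inhibitors. The study asked whether these inhibitors of the CTBP dehydrogenases act through CTBP1 and CTBP2, which the dKO cells were made to lack. The dKO cells were outgrown from single edited cells, so clone and genotype cannot be told apart.

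In the integrated stress response, kinases that sense amino acid shortage, unfolded proteins, heme shortage or viral RNA phosphorylate the translation factor eIF2. General translation then slows, while the upstream reading frames of the Atf4 messenger RNA let more ATF4 protein be made. ATF4 raises the transcription of genes for amino acid supply, redox balance and, when stress lasts, cell death. RNA levels do not show the amount of ATF4 protein or of phosphorylated eIF2. CTBP1 and CTBP2 bind NADH, resemble metabolic dehydrogenases and act in the nucleus largely as corepressors that DNA-binding factors recruit. MTOB is a keto acid with a methylthio group that sits in their substrate pocket, and 4-Cl-HIPP is an oxime acid with a chlorophenyl group developed from that lead.

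ATF4 binds as a dimer with a C/EBP factor to a composite element with the letters TGATGNAA, and ATF3 and CREB family proteins bind the letters TGACGTCA. The promoter sequences are shown because they mark which of the 10 genes hold such letters close to 1 annotated start of transcription. Both strands were searched over 250 bases before and 50 bases after the start of the reference transcript in GRCm39, the build named for the deposited data. The composite element was found at 3 of the 10 genes (Atf3, Ddit3 and Chac1), compared with 2.94% of 18086 promoters of listed genes. The second element was found at 1 of the 10 genes (Ppp1r15a), compared with 2.55% of the promoters. Neither set of letters overlaps the other in these promoters. In the lines below the gene's own strand is printed, with the match in capitals, and the composite element reads as TTGCATCA because it lies on the opposite strand.
Atf3, chr1:190915603-190915670, minus strand: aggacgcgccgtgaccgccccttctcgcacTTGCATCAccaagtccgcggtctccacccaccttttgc
Ddit3, chr10:127126331-127126398, plus strand: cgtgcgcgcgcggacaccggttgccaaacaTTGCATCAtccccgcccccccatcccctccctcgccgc
Chac1, chr2:119181500-119181567, plus strand: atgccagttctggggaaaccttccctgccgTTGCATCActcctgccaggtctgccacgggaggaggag
Ppp1r15a, chr7:45175693-45175734, minus strand: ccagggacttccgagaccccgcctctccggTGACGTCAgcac
The matches begin 103 bases upstream of the start in Atf3, 199 in Ddit3, 159 in Chac1 and 12 in Ppp1r15a. A match is a description of the letters and was not tested as a binding site. Only 1 start per gene was searched, so a gene without a match may hold the letters at another start or further away. The searched bases lie wholly inside the annotated span of the gene for Atf3, Ddit3, Trib3, Chac1, Asns and Ddit4. All 3 genes with the composite element are among these. For Asns the searched bases are 7693670 to 7693969 in a span of 7671667 to 7728461. For Atf3 they are 190915488 to 190915787 in a span of 190902493 to 190950241.

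Expression is given as scaled TPM, a measure of transcript abundance per length that is scaled to the same total in each sample, so the depth of single samples is unknown. Log2(TPM + 1) was tested with limma for the 16383 genes whose mean normalized count exceeded 0.222, and all 10 genes passed this limit. A gene is said to have risen or fallen where its p-value, adjusted after Benjamini-Hochberg over all genes, was below 0.05, and is called where the fold change also exceeds 1.5 (log2 0.585). Because of the added 1, changes of genes with few TPM come out too small on this scale. Ctbp1 had 170.1 to 238 TPM in the 9 wildtype samples and 19.7 to 31.5 TPM in the 9 dKO samples, and Ctbp2 had 87.8 to 96.9 TPM and 68.5 to 81.9 TPM. These RNA levels do not give protein. The paper edited both genes to hold a stop and a frameshift, and its western blot showed that both proteins were lost. Of 10 macrophage markers 9 were listed (Mertk was not), at a summed 2400 to 3490 TPM. Among them Cd14 (91.6 to 857 TPM), Adgre1 (6.7 to 107 TPM) and Itgam (11.3 to 65.3 TPM) varied most between samples. The lists for T, B, fibroblast, epithelial and endothelial cells summed to at most 2.1 TPM. These sums rest on few genes, with 2 of 4 T cell, 1 of 3 B cell and 2 of 3 fibroblast markers listed. For epithelial cells 1 of 3 and for endothelial cells 3 of 3 markers were listed. The mitochondrial share of TPM was 7.04% in replicate 1 of MTOB-treated dKO cells and 8.99% to 10.3% in all other samples. In bulk RNA, fewer cells with a transcript and less of it per cell cannot be told apart.

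The 10 genes covered a wide range of levels. Atf4, encoding the central transcription factor of the response, had the highest level, with 182 to 240.4 TPM over all samples. Asns, which encodes asparagine synthetase, followed with 99.8 to 142 TPM. Atf5, whose product is a bZIP factor under similar translational control, had 23.5 to 44.8 TPM. Ppp1r15a encodes GADD34, a regulatory subunit of the phosphatase that removes the phosphate from eIF2, and had 6.67 to 23.8 TPM. Ddit4, which encodes REDD1, an inhibitor of the growth kinase mTORC1, had 3.06 to 17.5 TPM. The remaining members were low. Atf3, a stress-induced bZIP factor, had 3.11 to 9.47 TPM, and Sesn2, encoding the leucine-binding protein sestrin 2, had 4.43 to 6.59 TPM. Trib3, whose product is a pseudokinase that binds ATF4 and AKT, had 1.24 to 4.86 TPM, and Chac1, encoding a glutathione-degrading enzyme, had 1.67 to 5.83 TPM. Ddit3, the gene of the death-associated factor CHOP, had 4.26 to 12.9 TPM.

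**Figure D1:**
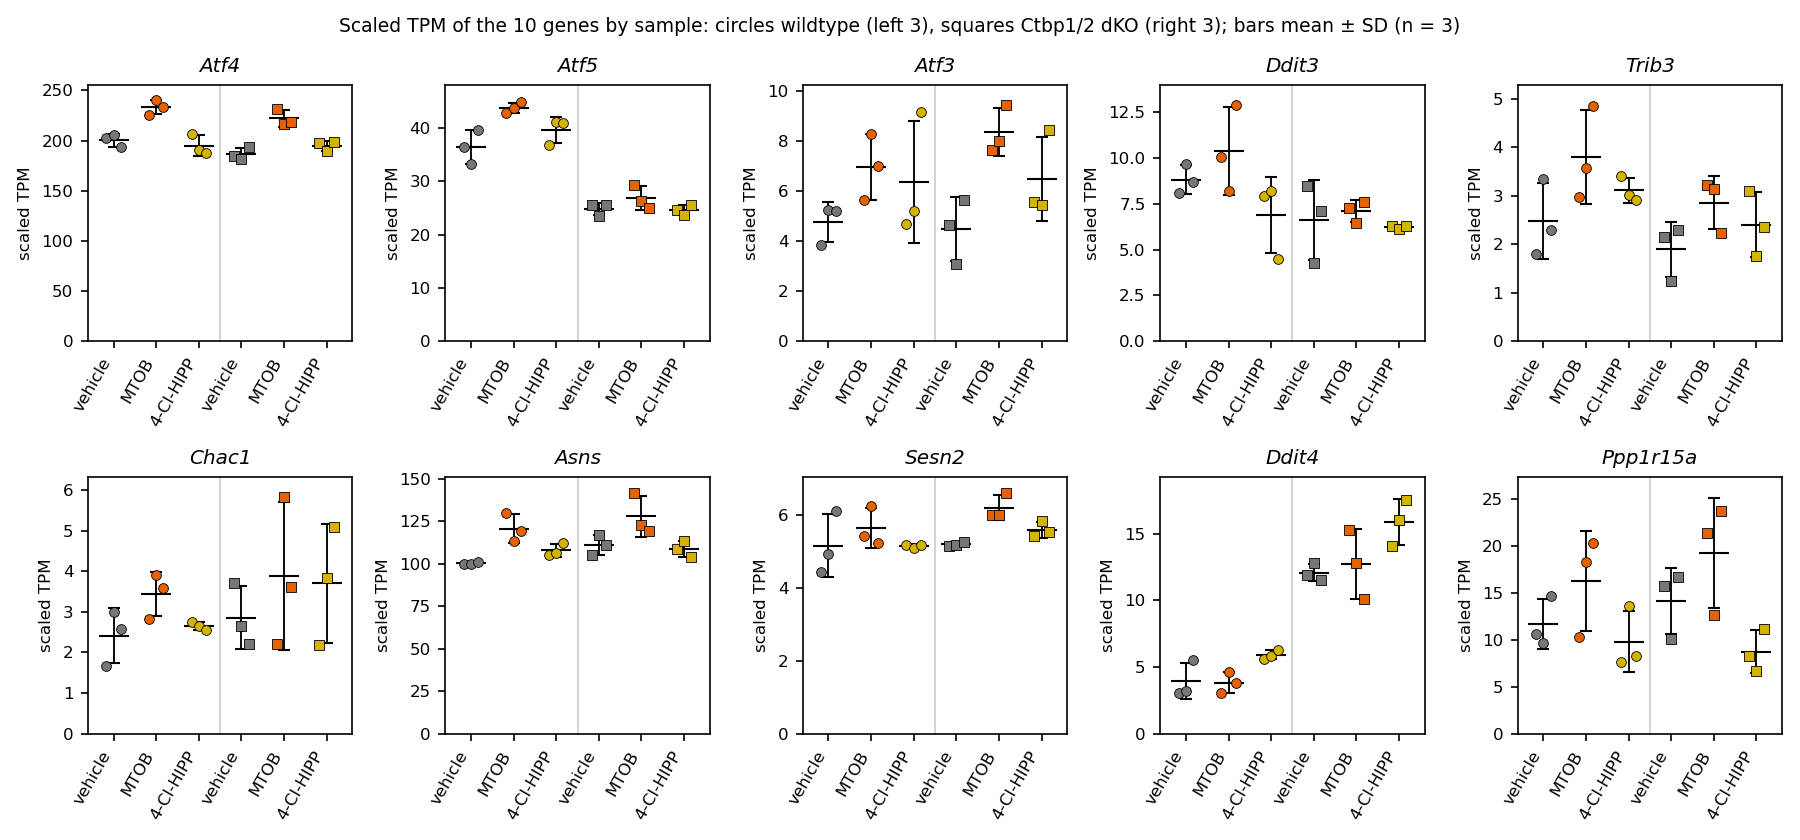
Scaled TPM (linear axis from 0) of each of the 10 genes in every sample by treatment, with wildtype samples as circles on the left and dKO samples as squares on the right of each panel, and bars for mean ± SD (n = 3). The dKO squares stand apart from the wildtype circles for Ddit4 (above) and Atf5 (below), and the MTOB points stand above the vehicle points for Atf4.

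The value of Ddit3 is uncertain. In the reference annotation, 79.5% of the bases of its transcript (778 of 979) overlap exons of Mars1, a gene on the opposite strand that had 113 to 166 TPM, and the library kit did not keep strand. Exons of Gm4189, also on the opposite strand, overlap 20.5% of the Ddit3 transcript. A second annotated entry named Ddit3, on the same strand and not among the listed genes, overlaps 10.7% of it. Reads from Ddit3 and these overlapping genes can then be hard to assign. For Atf5 and Asns the overlap with opposite-strand exons was 4.52% and 5.26% of the transcript.

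The first question was whether MTOB changed these genes in wildtype cells. Atf4 and Asns rose, by less than 1.5-fold, and no gene of the 10 was called. Atf4 (ENSMUSG00000042406, chromosome 15, 80139372 to 80141745, plus strand) had 202, 205 and 193 TPM in the vehicle samples and 226, 240.4 and 234 TPM under MTOB. All 3 MTOB samples were above all 3 vehicle samples. The means were 200.3 ± 6.26 TPM (SD, n = 3) and 233 ± 7.34 TPM (SD, n = 3), with an estimated log2 fold change of 0.22 (SE 0.04, limma, Benjamini-Hochberg-adjusted p = 0.00579). Asns (ENSMUSG00000029752, chromosome 6, 7671667 to 7728461, minus strand) had 99.8, 99.8 and 101 TPM in the vehicle samples, which lay close together. Under MTOB it had 129.7, 113 and 119 TPM, all above the vehicle samples, with an estimate of 0.26 (log2 scale, SE 0.07, adjusted p = 0.0223, limma). This result for Asns did not withstand the loss of single samples, and the adjusted p reached 0.110 without replicate 1 of the MTOB group and was above 0.05 without replicate 3 of that group or any vehicle sample. The 2 of 10 genes that rose compare with 3.8% of all genes tested that rose. With the fold limit, 0 of 10 genes were called by limma, compared with 2.01% of all genes.

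The other members in wildtype cells did not pass. Atf5 was close, with 36.4, 33.2 and 39.6 TPM under vehicle and 42.7, 43.7 and 44.8 TPM under MTOB. These groups did not overlap, and the log2 fold change was 0.26 (SE 0.08, adjusted p = 0.0509, limma). Without replicate 3 of the vehicle group, Atf5 passed with an adjusted p of 0.0308 (limma). Atf3 had 3.84, 5.24 and 5.21 TPM under vehicle and 5.64, 8.29 and 7.03 TPM under MTOB, again without overlap (log2 fold change 0.47, SE 0.23, adjusted p = 0.313, limma). The groups did not overlap, with MTOB higher, for 4 of the 10 genes (Atf4, Atf5, Atf3 and Asns) and for 10.6% of all genes. Trib3 (0.47) and Ppp1r15a (0.41) had log2 fold changes of like size, but their replicates were spread more widely and overlapped. Ppp1r15a, for example, had 10.3, 18.3 and 20.4 TPM under MTOB and 10.7, 9.7 and 14.7 TPM under vehicle. Chac1 (0.39), Ddit3 (0.20), Sesn2 (0.11) and Ddit4 (-0.01) also overlapped between the groups. The estimate was above 0 for 9 of the 10 genes, with a median log2 fold change of 0.26, and for 46.5% of all genes, with a median of -0.01.

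In Ctbp1/2 dKO cells, Atf4 also rose under MTOB. Atf4 had 185, 182 and 194 TPM in the vehicle samples and 231, 216 and 218 TPM under MTOB. The groups did not overlap, and the log2 fold change was 0.25 (SE 0.04, adjusted p = 0.00269, limma). Without replicate 1 of the MTOB group, the sample with the low mitochondrial share, the estimate for Atf4 was 0.22 (adjusted p = 0.0134, limma). No other member passed. Atf3 (ENSMUSG00000026628, chromosome 1, 190902493 to 190950241, minus strand) had the largest estimate, with 4.67, 3.11 and 5.66 TPM under vehicle and 7.64, 8.01 and 9.47 TPM under MTOB. All MTOB samples exceeded all vehicle samples for Atf3, and its log2 fold change was 0.80 (SE 0.23, adjusted p = 0.0557, limma). It passed when replicate 3 of the vehicle group was left out, with an adjusted p of 0.0479 (limma).

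Asns in dKO cells had 105, 117 and 111 TPM under vehicle and 142, 122 and 119 TPM under MTOB, with an estimate of 0.20 (log2 scale, SE 0.07, adjusted p = 0.0915, limma). Sesn2 had 5.14, 5.18 and 5.26 TPM under vehicle and 5.99, 5.99 and 6.59 TPM under MTOB (0.21, SE 0.10, adjusted p = 0.232, limma). Neither gene overlapped between the groups, and neither passed after adjustment. The 1 of 10 genes that rose compares with 3.04% of all genes, and 0 of 10 called genes compare with 1.63%. Groups that did not overlap, with MTOB higher, were seen for 4 of the 10 genes (Atf4, Atf3, Asns and Sesn2) and for 9.51% of all genes. All 10 estimates were above 0, with a median of 0.23 compared with -0.01 over all genes tested.

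Taking both genotypes in 1 comparison, which was chosen after the data were seen, used 6 MTOB and 6 vehicle samples. Atf4, Asns, Atf3 and Atf5 rose, and Atf3 was called. Atf4 was higher in all 6 MTOB samples than in any of the 6 vehicle samples, with an estimate of 0.23 (log2 scale, SE 0.03, adjusted p = 0.000101, limma), a separation in this direction seen for 2% of all genes. The estimate was 0.23 (SE 0.05, adjusted p = 0.00313, limma) for Asns and 0.63 (SE 0.17, adjusted p = 0.0178, limma) for Atf3. Atf5 was at 0.18 (SE 0.05, adjusted p = 0.0334, limma). Among all genes 5.85% rose, and 1.92% were called in either direction. The call of Atf3 was lost when replicate 2 of the dKO vehicle group was left out (log2 fold change 0.54, adjusted p = 0.0505, limma). It fell inside the fold limit without replicate 1 of the wildtype vehicle group or replicate 2 of the wildtype MTOB group (0.57 in both cases). Atf5 no longer passed without any 1 of 6 samples, with an adjusted p of up to 0.0868 (limma) without replicate 2 of the wildtype vehicle group. Trib3 (0.45, adjusted p = 0.0661), Ppp1r15a (0.41, adjusted p = 0.254), Chac1 (0.34, adjusted p = 0.307) and Sesn2 (0.16, adjusted p = 0.138) did not pass in limma. Ddit4 stayed at 0.02 with a 95% interval of -0.25 to 0.29.

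The next question was whether 4-Cl-HIPP, given at a dose that differed from that of MTOB, changed the genes. No gene of the 10 rose or fell in either genotype, compared with 0.366% of all genes in wildtype and 0.501% in dKO cells. In wildtype cells 0 of 10 genes were called by limma, compared with 0.14% of all genes. In dKO cells 0 of 10 were called, compared with 0.153% of all genes. The medians over the 10 genes were 0.11 in wildtype and 0.07 in dKO cells, compared with 0.01 and 0.00 over all genes.

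Ddit4 had the largest estimate under 4-Cl-HIPP in wildtype cells. It had 3.08, 3.2 and 5.51 TPM in the vehicle samples and 5.64, 5.81 and 6.3 TPM in the treated samples. The groups did not overlap, although replicate 3 of the vehicle group lay close to the treated samples, and the log2 fold change was 0.52 (SE 0.18, adjusted p = 0.392, limma). In dKO cells Ddit4 had 11.9, 12.8 and 11.6 TPM under vehicle and 14.1, 16.1 and 17.5 TPM under 4-Cl-HIPP, also without overlap (0.36, SE 0.18, adjusted p = 0.620, limma). Under MTOB the same gene overlapped the vehicle samples in wildtype cells (3.06, 4.63 and 3.77 TPM). Groups without overlap, 4-Cl-HIPP higher, were seen for 2 of 10 genes in each genotype, compared with 7.65% of all genes in wildtype and 8.01% in dKO cells. They were Ddit4 and Asns in wildtype and Ddit4 and Sesn2 in dKO cells. Over both genotypes together the estimate for Ddit4 was 0.44 (SE 0.13, adjusted p = 0.134, limma), and it was 0.55 (adjusted p = 0.0223) without replicate 3 of the wildtype vehicle group.

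Atf4 itself had 207, 190.2 and 187 TPM under 4-Cl-HIPP in wildtype cells and 197, 189 and 198 TPM in dKO cells, overlapping the vehicle samples in both genotypes. The 95% intervals of its log2 fold change were -0.14 to 0.05 in wildtype and -0.03 to 0.16 in dKO cells. Ppp1r15a was the member with the lowest estimate, at 8.27, 6.67 and 11.2 TPM under 4-Cl-HIPP in dKO cells compared with 15.7, 10.1 and 16.7 TPM under vehicle. One sample of each group crossed the other, and the log2 fold change was -0.64 (SE 0.30, adjusted p = 0.587, limma). Both inhibitors were compared with the same vehicle samples and their doses differed, so they were not tested against each other. Side by side, the estimate for Ppp1r15a was 0.41 under MTOB and -0.25 under 4-Cl-HIPP in wildtype cells, and 0.40 and -0.64 in dKO cells. For Atf3 it was 0.47 under MTOB and 0.31 under 4-Cl-HIPP in wildtype cells, and 0.80 and 0.46 in dKO cells.

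**Figure D2:**
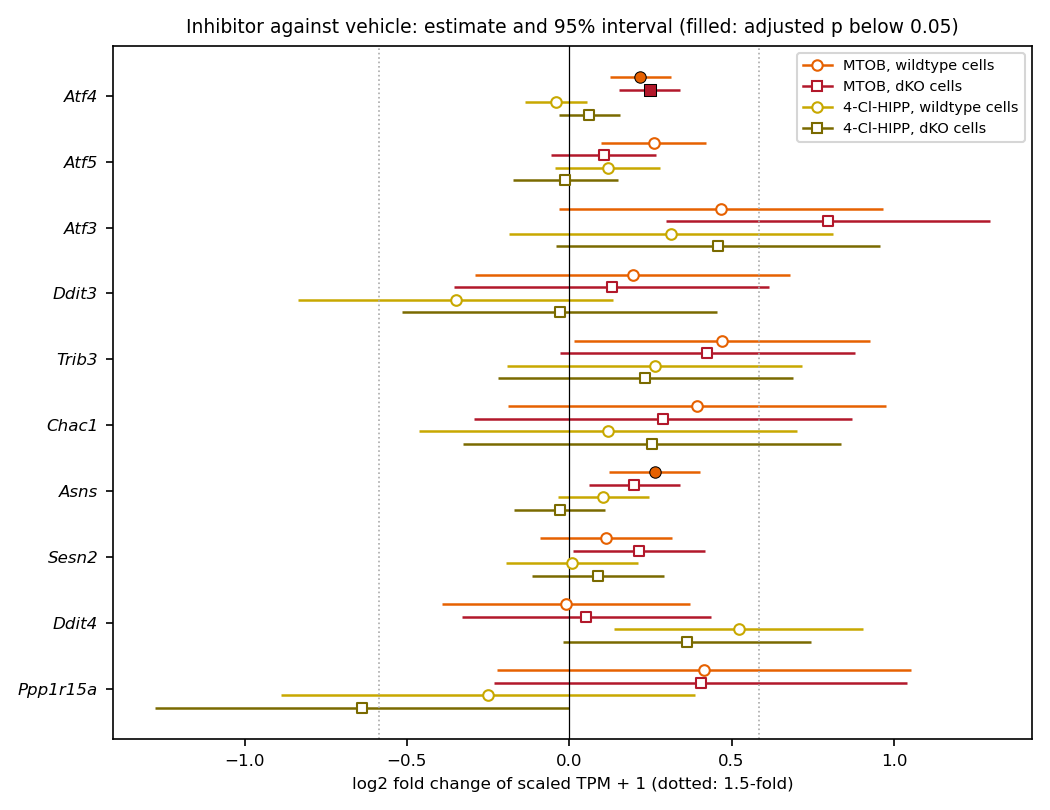
Log2 fold change of scaled TPM + 1 (x axis) of each gene for each inhibitor against vehicle in each genotype, with the 95% interval as a line and filled symbols where the adjusted p was below 0.05. Filled symbols appear for Atf4 under MTOB in both genotypes (0.22 and 0.25) and for Asns under MTOB in wildtype cells (0.26), and all symbols of 4-Cl-HIPP are open.

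Whether an inhibitor effect differed between wildtype and dKO cells was tested as an interaction. None of the 10 genes had such a difference for MTOB or for 4-Cl-HIPP in limma. Among all genes 0.0916% had a difference for MTOB and 0% for 4-Cl-HIPP. For Atf4 the MTOB effect in wildtype minus that in dKO cells was -0.03 with a 95% interval of -0.16 to 0.11. For Atf3 it was -0.33 with an interval of -1.04 to 0.37, and for Ppp1r15a it was 0.01 with an interval of -0.89 to 0.91. The intervals of this MTOB difference reached past 1.5-fold for 6 of the 10 genes (Atf3, Ddit3, Trib3, Chac1, Ddit4 and Ppp1r15a) and stayed inside it for Atf4, Atf5, Asns and Sesn2.

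Of all log2 fold changes of the 10 genes, those of Ddit4 between the genotypes were the largest. Under every treatment, dKO cells had more Ddit4 and less Atf5 RNA than wildtype cells. Ddit4 (ENSMUSG00000020108, chromosome 10, 59785491 to 59788492, minus strand) had 3.08, 3.2 and 5.51 TPM in wildtype and 11.9, 12.8 and 11.6 TPM in dKO cells under vehicle. The lowest of the 9 dKO samples had 10.1 TPM and the highest of the 9 wildtype samples 6.3 TPM, so the genotypes did not overlap. The ratio of mean TPM was 3.08 under vehicle, 3.33 under MTOB and 2.69 under 4-Cl-HIPP. The log2 fold changes were 1.44 (SE 0.18, adjusted p = 4.31e-05), 1.51 (SE 0.18, adjusted p = 2.78e-05) and 1.28 (SE 0.18, adjusted p = 0.000137) in limma.

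Atf5 (ENSMUSG00000038539, chromosome 7, 44461680 to 44466082, minus strand) had 36.4, 33.2 and 39.6 TPM in wildtype and 25.5, 23.5 and 25.5 TPM in dKO cells under vehicle. Its highest dKO sample over all treatments had 29.3 TPM, below its lowest wildtype sample with 33.2 TPM. The ratio of mean TPM was 0.681 under vehicle, 0.613 under MTOB and 0.621 under 4-Cl-HIPP. The log2 fold changes were -0.53 (SE 0.08, adjusted p = 0.000162), -0.69 (SE 0.08, adjusted p = 1.25e-05) and -0.66 (SE 0.08, adjusted p = 1.81e-05) in limma. Under vehicle Atf5 thus stayed inside the fold limit, and it was called there only when replicate 2 of the wildtype vehicle group was left out.

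Called genes were 1 of 10 under vehicle, 2 of 10 under MTOB and 2 of 10 under 4-Cl-HIPP, compared with 4.83%, 4.95% and 4.72% of all genes. Over all treatments together, a comparison chosen after the data were seen, the log2 fold change was 1.41 (SE 0.10, adjusted p = 4.17e-08) for Ddit4 and -0.63 (SE 0.04, adjusted p = 2.36e-08) for Atf5 in limma. Both were called, compared with 5.2% of all genes. All 9 dKO samples lay above all 9 wildtype samples, as for Ddit4, in 3.53% of all genes and below them, as for Atf5, in 1.73%. Both genes thus moved in opposite directions, and over the 18 samples their log2 values had a Pearson r of -0.856, which rests on the 2 genotypes (r = 0.65 after the group means were removed).

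The other 8 genes did not pass limma between the genotypes under any treatment. Atf4 was 0.10 lower on the log2 scale in dKO cells under vehicle (-0.10, SE 0.04, adjusted p = 0.200), with overlapping samples. Asns under vehicle had 105, 117 and 111 TPM in dKO cells, all above the wildtype samples at 99.8 to 101 TPM, with an estimate of 0.14 (log2 scale, SE 0.07, adjusted p = 0.219, limma). Ddit3 under MTOB had 7.29, 6.45 and 7.61 TPM in dKO cells, all below the wildtype samples at 8.18 to 12.9 TPM (-0.47, SE 0.23, adjusted p = 0.241, limma). Sesn2 under 4-Cl-HIPP had 5.42 to 5.83 TPM in dKO and 5.09 to 5.17 TPM in wildtype cells (0.10, adjusted p = 0.649, limma). All dKO samples were higher for 2 of 10 genes under vehicle and 2 of 10 under 4-Cl-HIPP, compared with 15.1% and 14.4% of all genes. All were lower for 2 of 10 genes under MTOB, compared with 10.1% of all genes. Over all treatments the estimate was -0.32 for Ddit3 and -0.29 (adjusted p = 0.121) for Trib3 in limma, and neither passed.

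**Figure D3:**
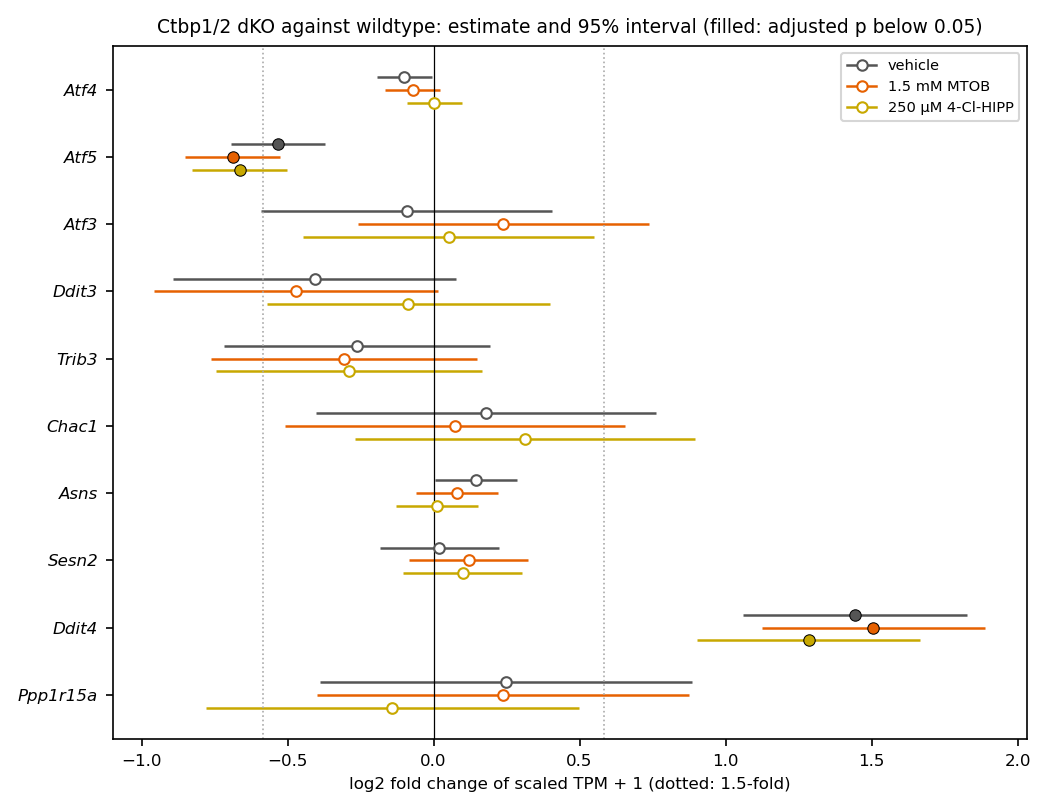
Log2 fold change of scaled TPM + 1 (x axis) of each gene in dKO against wildtype cells under vehicle, MTOB and 4-Cl-HIPP, with the 95% interval as a line, filled circles where the adjusted p was below 0.05 and dotted lines at 1.5-fold. Ddit4 lies at 1.28 to 1.51 and Atf5 at -0.69 to -0.53, and the circles of the other 8 genes are open.

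In the order of group means, wildtype cells under MTOB held the highest place for Atf4, Atf5, Ddit3 and Trib3. The highest place was held by dKO cells under MTOB for Atf3, Chac1, Asns, Sesn2 and Ppp1r15a. How often an MTOB group comes first among all genes was not computed, so these places describe the order only. Ddit4 was the exception, with the highest mean in dKO cells under 4-Cl-HIPP (15.9 ± 1.74 TPM, SD, n = 3). Neighbours in these orders mostly overlapped. For Atf4 the 4 groups without MTOB had means of 187 to 200.3 TPM, and neighbours among them overlapped. For Trib3 and Chac1, whose group means spanned 1.90 to 3.80 TPM and 2.41 to 3.88 TPM, no comparison between groups passed.

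Other genes of the pathway were taken from 4 lists of eIF2 kinases and their partners, amino acid transporters, amino acid and one-carbon enzymes, and further ATF4 and CHOP targets. In the first list, 1 of 12 genes rose and 1 fell under MTOB in each genotype. Among all genes tested, 3.8% rose and 3.46% fell in wildtype cells, and 3.04% rose and 3.54% fell in dKO cells. Each count of 1 thus lies near the background. Over both genotypes together, the comparison chosen after the data were seen, 3 of 12 genes of this list rose and 2 fell under MTOB. Of the transporters 6 of 10 rose and 0 fell, and of the enzymes 2 of 13 rose and 1 fell. Of the further targets 8 of 14 rose and 0 fell. Among all genes 5.85% rose and 7.32% fell in that comparison. Eif2ak2, encoding the interferon-induced kinase PKR that phosphorylates eIF2, had 29.2, 23.9 and 25.9 TPM in wildtype vehicle samples and 49.3, 44.6 and 39.2 TPM under MTOB, without overlap. Its log2 fold change was 0.73 (SE 0.10, adjusted p = 0.000242, limma) in wildtype and 0.20 (adjusted p = 0.294) in dKO cells, and no gene of these lists passed the interaction test. Oma1, the mitochondrial protease that cleaves DELE1, fell in wildtype cells by 0.51 on the log2 scale (adjusted p = 0.0134, limma). In dKO cells Cebpb, encoding a dimer partner of ATF4, rose (0.58, adjusted p = 0.0327) and Dele1, whose product relays mitochondrial stress to an eIF2 kinase, fell (-0.38, adjusted p = 0.0193) in limma. In the other genotype these 3 genes did not pass, with means that moved in the same direction. In wildtype cells the means under vehicle and MTOB were 74.1 and 98.1 TPM for Cebpb and 30.3 and 24.8 TPM for Dele1. In dKO cells they were 14.5 and 12.7 TPM for Oma1. Single samples decided the 3 results that passed. The adjusted p (limma) rose to 0.0652 for Oma1 without replicate 3 of the MTOB group, to 0.0858 for Dele1 without replicate 3 of the vehicle group, and to 0.135 for Cebpb without replicate 1 of the MTOB group.

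Of 10 amino acid transporters, 4 rose and 0 fell under MTOB in each genotype, compared with 3.8% of all genes that rose in wildtype and 3.04% in dKO cells. Slc7a11, encoding the cystine-glutamate exchanger, had 4.94, 5.11 and 4.38 TPM in wildtype vehicle samples and 15.3, 17.5 and 17.1 TPM under MTOB. In dKO cells Slc7a11 had 2.5, 3.1 and 2.81 TPM under vehicle and 11.5, 13.8 and 14.4 TPM under MTOB. The groups were far apart in both genotypes, with log2 fold changes of 1.60 (SE 0.10, adjusted p = 3.09e-08) and 1.90 (SE 0.10, adjusted p = 5.96e-09) in limma. Slc7a11 and Sqstm1 are also known targets of the antioxidant factor NRF2. Slc3a2, which encodes the partner chain of this exchanger and of the leucine transporter, rose by 0.26 (adjusted p = 0.0162) and 0.39 (adjusted p = 0.00111), and the leucine transporter gene Slc7a5 by 0.17 (adjusted p = 0.00713) and 0.14 (adjusted p = 0.0212) in limma. The glutamine transporter gene Slc1a5 rose in wildtype cells (0.26, adjusted p = 0.00839), and the glycine transporter gene Slc6a9 in dKO cells (0.61, adjusted p = 0.0154, limma). Without single samples the adjusted p (limma) reached 0.0745 for Slc3a2 in wildtype cells (MTOB replicate 3), and in dKO cells 0.0846 for Slc7a5 (vehicle replicate 2) and 0.0598 for Slc6a9 (vehicle replicate 1).

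Of 13 amino acid and one-carbon enzymes, 1 rose in wildtype cells, and 2 rose and 1 fell in dKO cells under MTOB. The shares of all genes were 3.8% that rose in wildtype cells, and 3.04% that rose and 3.54% that fell in dKO cells. Mthfd2, encoding a mitochondrial folate enzyme, rose by 0.18 (adjusted p = 0.0345) and 0.21 (adjusted p = 0.0146). Cth, encoding the cysteine-forming enzyme cystathionine gamma-lyase, rose in dKO cells (0.76, adjusted p = 0.0212), where the aspartate aminotransferase gene Got1 fell (-0.15, adjusted p = 0.0362, limma). The adjusted p (limma) of Mthfd2 in wildtype cells was above 0.05 without any 1 of the 6 samples compared. In dKO cells it reached 0.0780 for Mthfd2 without vehicle replicate 2, 0.0800 for Cth without MTOB replicate 1 and 0.152 for Got1 without vehicle replicate 3. Of the 18 further targets 14 were tested, and 8 rose in wildtype and 5 in dKO cells, with 0 that fell, compared with 3.8% and 3.04% of all genes that rose and 3.46% and 3.54% that fell. Sqstm1, encoding the autophagy receptor p62, had 136, 138 and 127 TPM under vehicle and 299.6, 328 and 303 TPM under MTOB in wildtype cells. Its log2 fold change was 1.21 (SE 0.07, adjusted p = 1.52e-08) in wildtype and 1.08 (SE 0.07, adjusted p = 6.00e-08) in dKO cells in limma. Cdkn1a, the gene of the cell cycle inhibitor p21, rose by 0.68 and 0.60, and Jdp2, whose product dimerizes with ATF3 relatives, by 0.38 and 0.57. Trib1, a relative of Trib3, rose in wildtype cells (0.67, adjusted p = 0.00260, limma). With only the compared groups in the model, Jdp2 (adjusted p = 0.0696), Oma1 and Slc1a5 in wildtype cells no longer passed limma. Nor did the further targets Eif4ebp1 (0.0681), Gadd45b (0.0585), Herpud1 (0.158) and Nfil3 (0.150) in wildtype cells. In dKO cells the same held for Cdkn1a (adjusted p = 0.0765, limma), Gadd45b, Cebpb, Dele1, Slc3a2, Slc7a5, Slc6a9, Mthfd2, Cth and Got1. Over all these genes the adjusted p in that model was 0.0585 to 0.206. Without single samples the adjusted p (limma) reached 0.0985 for Nfil3 in wildtype cells (MTOB replicate 1) and 0.1625 for Gadd45b in dKO cells (vehicle replicate 3).

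Under 4-Cl-HIPP 0 of the genes tested in the 4 lists passed limma in either genotype alone. Over both genotypes together Pck2, encoding the mitochondrial enzyme that forms phosphoenolpyruvate, and Cdkn1a rose, by 0.34 (adjusted p = 0.0428) and 0.25 (adjusted p = 0.0457, limma), compared with 1.1% of all genes that rose. Both lay near the threshold. Pck2 no longer passed in 10 of the 12 models without 1 sample (adjusted p up to 0.123, without replicate 1 of the dKO 4-Cl-HIPP group), and Cdkn1a in 9 of 12 (up to 0.128, without the same sample). With only the compared groups in the model the adjusted p was 0.0554 for Pck2 and 0.118 for Cdkn1a (limma). Cdkn1a and Sqstm1 had estimates of 0.33 (adjusted p = 0.144) and 0.24 (adjusted p = 0.206) in wildtype cells. Between the genotypes under vehicle, the first list had 3 of 12 genes that were higher and 0 that were lower in dKO cells, compared with 7.01% and 3.72% of all genes. One of these, Eif2ak4, encoding the amino acid sensing kinase GCN2 (0.33, adjusted p = 0.0324, limma) and named after its value was seen, no longer passed in 5 of the 6 models without 1 sample, with an adjusted p of up to 0.138 without replicate 3 of the dKO group. Nupr1, encoding a small stress-induced chromatin protein, had 11.1, 17 and 12.2 TPM in wildtype and 35.9, 36.8 and 33.6 TPM in dKO cells. Its log2 fold change was 1.36 (SE 0.20, adjusted p = 0.000223, limma), and that of Eif2ak2 was 0.70 (adjusted p = 0.000190). Slc7a11 was lower in dKO cells (-0.61, adjusted p = 0.000402), and so was Slc7a5 (-0.12, adjusted p = 0.0287, limma). Among the enzymes Aldh18a1, for proline synthesis, was higher (0.36, adjusted p = 0.0127) and Psat1, for serine synthesis, lower (-0.16, adjusted p = 0.00829, limma). Without dKO vehicle replicate 3 the adjusted p (limma) was 0.0702 for Aldh18a1, and without dKO vehicle replicate 2 it was 0.102 for Slc7a5. With only the compared groups in the model it was 0.0580 for Psat1. Jdp2 (0.64, adjusted p = 2.54e-06) and Trib1 (0.77, adjusted p = 0.000485, limma) were higher, and of the 14 further targets 4 were higher and 1 was lower, compared with 7.01% and 3.72% of all genes. These genotype differences, like those of Ddit4 and Atf5, rest on clonal lines.

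**Figure D4:**
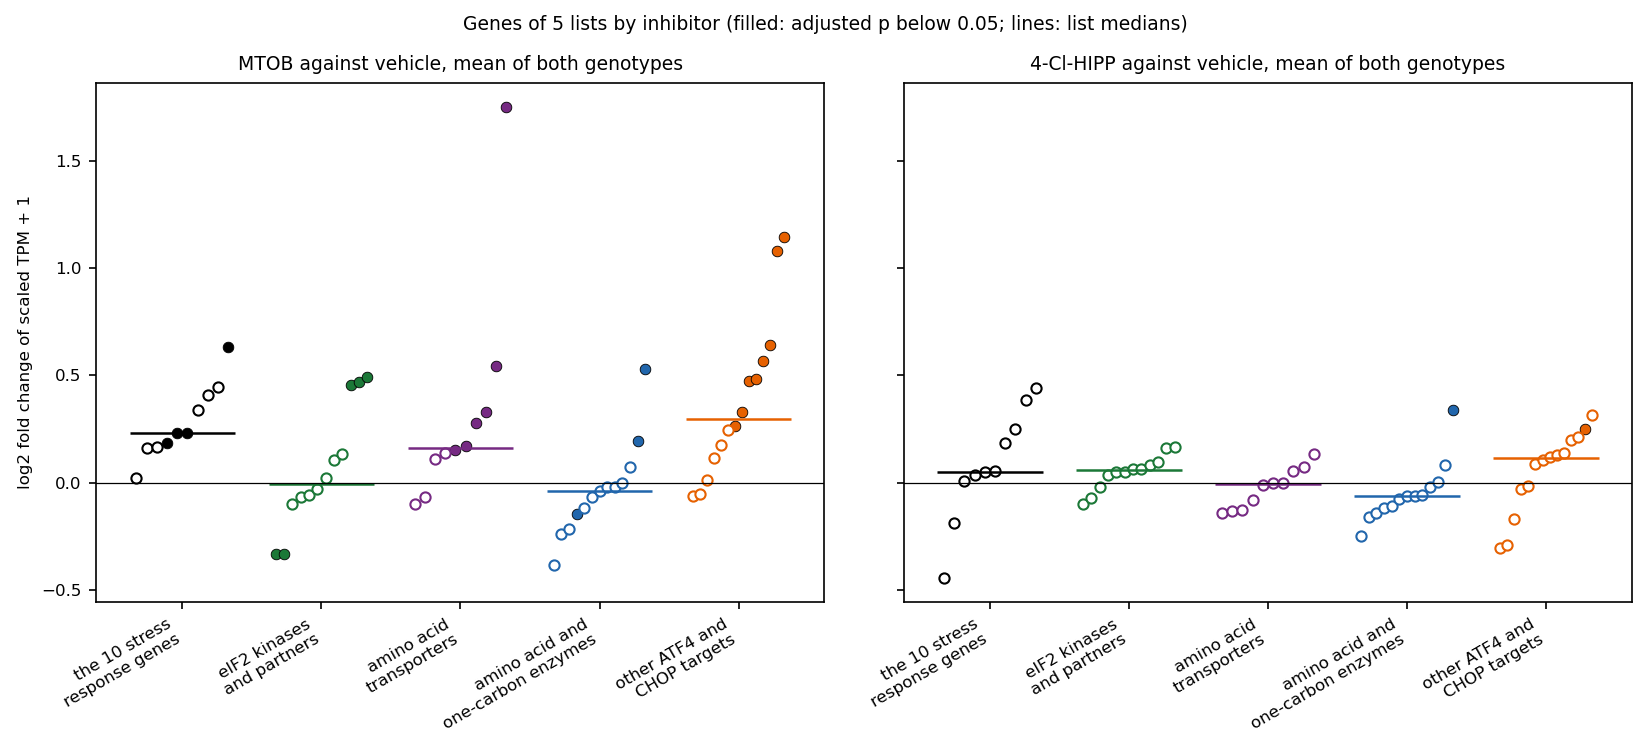
Log2 fold change of scaled TPM + 1 (y axis) of the tested genes of 5 lists under MTOB (left) and 4-Cl-HIPP (right), as the mean of both genotypes, with filled points where the adjusted p was below 0.05 and a line at each list's median. Under MTOB, Slc7a11 (1.75) stands highest, and the 10 stress response genes reach 0.63 (Atf3). Under 4-Cl-HIPP the filled points are Pck2 (0.34) and Cdkn1a (0.25).

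Genes whose level followed that of a member most closely were sought among 9718 genes with a mean of at least 5 TPM, by Pearson r of log2(TPM + 1) over the 18 samples. These samples share treatments and genotypes, so r describes likeness only. For Atf4 the 4 nearest genes were Anxa5 (r = 0.947), Nab2 (0.934), Ptgir (0.928) and Glipr1 (0.924). For Trib3 they were Pqbp1 and Slc7a5 (both 0.787), Zfp324 (0.773) and Rbm3 (0.769). Slc7a5 thus is the one gene of the pathway lists among them. For Ddit3 they were Vma21 (0.786), Socs5 (0.761), Trnt1 (0.748) and Cdca7 (0.748). Among the 10 genes themselves the highest value was that of Atf4 with Trib3 (0.668).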

How the data were processed

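The authors quantified unstranded paired-end libraries with Salmon 1.9.0 on GRCm39 and used DESeq2 1.44.0, according to the study's methods, which name rRNA depletion where the labels name polyA RNA. They deposited 1 table with a scaled TPM per gene and sample (sums of 999766 to 999897) and 1 signal column with each gene's normalized count averaged over the samples. The log2 fold changes and adjusted p-values that the authors deposited for their own comparisons were not used, nor were counts.

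Groups follow the labelled genotype and treatment, and the labels give no batch. The members and gene lists were chosen with earlier results of these data known. Log2(TPM + 1) was fitted with limma 3.58.1 (R 4.3.3) in 1 model of the 6 group means, moderated by empirical Bayes, with variances trended on the signal column (log2), over the 16383 genes above its 10th percentile. The 9 comparisons were each inhibitor against vehicle in each genotype, dKO against wildtype under each treatment and, for each inhibitor, the effect in wildtype minus that in dKO cells. Another 3, averaged over genotypes or treatments, were added after the data were seen. Within a comparison, p-values of all genes were adjusted after Benjamini-Hochberg. They measure the spread between replicates, which the study calls biological. The procedure was run on simulated data with changes planted only in genes with higher counts. The spread in that run was set in advance and not taken from these data. That run thus covers neither genes with few counts nor the spread between these replicates. All 10 members are named, and of each wider list at most 4 genes with the smallest adjusted p in the MTOB comparisons and at most 2 in the others. A few more genes of the lists are named because their results did not withstand an alternative. Promoters were cut from GRCm39 at the canonical GENCODE transcript start (18087 of 18204 gene IDs had one).

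Alternatives were pseudocounts of 0.1 and 5, other expression limits, median-ratio scaling, scaling without mitochondrial genes (added after the data were seen), the variance trend, only the compared groups, the call rule, a replicate block and the loss of each sample. Of 45 pairs of same-numbered samples, 0 correlated above 0.1 in their deviations from group means.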

Additional observations from a re-analysis of the deposited data

How the results depend on the processing

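For the 10 genes, 2040 of 2150 alternative values kept their direction and their side of the threshold, 15 lost and 16 gained significance, 0 of the significant values changed sign, and 79 changed sign without being significant in the comparison as reported. The counts of called genes in either direction moved as follows. With the adjusted p-value alone, 2 genes passed for MTOB in wildtype, 1 for MTOB in dKO, 2 for dKO against wildtype under vehicle and 4 for MTOB over both genotypes. With a pseudocount of 5 the count for MTOB over both genotypes went to 0 and that for the genotype over all treatments to 1 (Ddit4). Atf3 was called for MTOB in dKO (count 1) with a limit of a mean of 1 TPM, with median-ratio scaling and with the replicate block (adjusted p = 0.0199, limma). The block changed no other call among the 10 genes. In their deviations from group means, same-numbered samples correlated between -0.0866 and 0.0895, and 8 of 18 samples correlated best with their own number. These values cover all genes tested together, so they cannot decide whether same-numbered samples share an effect on some genes. Leaving out single samples gave 1 to 2 called genes for dKO against wildtype under vehicle, 0 to 1 for MTOB over both genotypes and 0 to 1 for MTOB in dKO, and left the other counts as reported. With only the compared groups in the model, Asns under MTOB in wildtype (adjusted p = 0.0712) and Atf4 under MTOB in dKO (adjusted p = 0.0595, limma) no longer passed. Atf5 under MTOB was near the threshold: in wildtype it passed under 5 alternatives, and over both genotypes it failed under 7, with an adjusted p of up to 0.0868 (limma). Over both genotypes, Trib3 passed under MTOB without wildtype vehicle replicate 2, wildtype MTOB replicate 1 or dKO MTOB replicate 3, and Sesn2 without wildtype vehicle replicate 3. Ddit3 passed between genotypes over all treatments without wildtype 4-Cl-HIPP replicate 3 or dKO vehicle replicate 1 (adjusted p = 0.0249 to 0.04997 for these, limma). The cause of these changes was not tested. Median-ratio scaling moved the median of all genes by at most 0.0276 on the log2 scale. Depth per sample is unknown.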
